A study of Bos taurus with 33 samples.

Results

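IFI6, IFI27, IFITM1, IFITM2, IFITM3 and BST2 encode small interferon-induced proteins that sit in cell membranes, and all probe sets of these 6 genes were taken across bovine endometrium exposed to a conceptus or to interferon. The array annotation and RefSeq gave 6 probe sets in 4 genes, of 24016 probe sets tested. IFI6 and IFI27 had 1 probe set each. IFITM1 had 2, a high one, whose mean level was above 10 in every group, and a low one, whose mean level lay between 3.28 and 6.16. The remaining 2 are annotated to LOC282255, for which RefSeq gives IFITM3 as a synonym, and are called its first and second probe sets here, the second having the higher mean. A further locus with that synonym, LOC777594, and IFITM2 matched no probe set, and BST2 was not found by name in either table, so these were not analysed here. In RefSeq's gene order IFI27 lies between ISG12(B) and IFI27L2, and IFITM1 lies next to LOC777594.

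Expression was measured in 33 Bavarian Simmental heifers, 1 Affymetrix bovine genome array each, all synchronised with the prostaglandin analogue cloprostenol. In the application experiment, a lipid extrudate that released human interferon alpha (IFNA) was placed in the uterine horn of 3 heifers on cycle day 14, while 3 placebo heifers were given an extrudate without interferon and 3 control heifers only phosphate-buffered saline (PBS). About 6 endometrial biopsies were taken from the caudal part of the ipsilateral horn of each of these animals on day 16, after flushing. In the pregnancy experiment, intercaruncular endometrium of the ipsilateral horn was taken at slaughter from inseminated, pregnant heifers and from cyclic heifers sham-inseminated with sperm-free supernatant, with 5 and 5 animals on day 12, 3 and 3 on day 15, and 4 and 4 on day 18. The horn was sampled distally on day 12, medially on day 15 and caudally on day 18, so day and position cannot be told apart.

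Type I interferons bind the receptor IFNAR1/IFNAR2 and, through signalling to the nucleus, act on genes that carry interferon-responsive elements. In ruminants the elongating conceptus secretes interferon tau, a type I interferon that signals pregnancy to the endometrium and protects the corpus luteum. Among the genes it induces, IFI6 encodes a mitochondrial protein and IFI27 a member of the same family of small hydrophobic proteins, both studied in human cells for their part in cell death and viral infection. IFITM1 and IFITM3 are described in human and mouse cells as proteins of the plasma membrane and endosomes that hinder virus entry, and IFITM1 also takes part in cell adhesion. BST2, also called tetherin, holds budding viruses at the cell surface.

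All values are RMA log2 expression levels, so a difference of 1 is a doubling, and differences are given as log2 ± SE from limma with Benjamini-Hochberg adjusted p-values over all 24016 probe sets. A probe set rose or fell where the adjusted p was below 0.05. The deposited values fell into 4 sets of arrays (biopsies and each slaughter day), with medians of 6.64 for the biopsies and 6.85, 6.49 and 7.25 on days 12, 15 and 18. Animals were therefore compared with controls of the same set. Epithelial and stromal markers were present on every array, with mean levels of 8.36 to 9.90 for 7 epithelial genes and 10.6 to 11.6 for 7 stromal genes, while 9 trophoblast genes averaged 4.02 to 4.76. The 3′ minus 5′ GAPDH control signal, a measure of RNA integrity, averaged 2.38 ± 0.667 in IFNA, 2.58 ± 1.44 in placebo and 2.67 ± 0.937 in PBS biopsies (SD, n = 3 each), against group means of -0.113 to 0.458 in the slaughter groups. In whole tissue, a change in the number of cells of a type and a change in RNA per cell cannot be told apart.

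IFI6 and IFI27 rose in the endometrium of IFNA-treated heifers, and so did the high IFITM1 probe set and both LOC282255 probe sets. Of the 6 member probe sets, 5 rose against placebo, where 0.837% of all probe sets rose, and 5 rose against PBS, where 0.712% did. The IFNA animals are the same in both comparisons, so these are not independent of each other. On all 6 the IFNA arrays lay above every placebo and every PBS array, a pattern seen for 5.38% and 6.09% of all probe sets. The count against PBS was 3 without IFNA animal 2 or PBS animal 1, and 2 without PBS animal 2.

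IFI6 measured 13.37, 13.56 and 13.36 in IFNA biopsies, against 10.67, 10.01 and 10.84 in placebo biopsies and 10.06, 10.57 and 10.59 in PBS biopsies. The IFNA animals lay within a narrow range far above both controls, and the controls overlapped each other. The difference was 2.92 ± 0.23 against placebo (7.59-fold, limma adjusted p = 0.00025) and 3.02 ± 0.23 against PBS (adjusted p = 0.000214). Of 42 interferon response genes measured, 10 had a larger difference than IFI6 against placebo.

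IFI27 measured 13.07, 12.58 and 12.25 in IFNA biopsies, against 11.00, 10.04 and 10.77 in placebo biopsies and 10.69, 10.83 and 11.00 in PBS biopsies. The IFNA animals varied more among themselves than for IFI6, and the lowest still lay above all control animals. The difference was 2.03 ± 0.27 against placebo (4.08-fold, limma adjusted p = 0.0085) and 1.79 ± 0.27 against PBS (adjusted p = 0.0196). The call against placebo was lost when only these 2 groups were fitted (adjusted p = 0.0663). That against PBS was lost without IFNA animal 2 (adjusted p = 0.0865) or without PBS animal 1, 2 or 3 (0.116, 0.0952 and 0.0652).

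IFITM1 measured 12.53, 11.79 and 11.91 on its high probe set in IFNA biopsies, against 10.41, 9.76 and 10.43 in placebo biopsies and 9.94, 10.22 and 10.78 in PBS biopsies. The groups did not overlap, and the first IFNA animal stood above the other two. The difference was 1.88 ± 0.28 against placebo (limma adjusted p = 0.0175) and 1.76 ± 0.28 against PBS (adjusted p = 0.0265). The call against placebo was lost without IFNA animal 3 (adjusted p = 0.0596) or placebo animal 2 (0.0616). That against PBS was lost without any 1 of the IFNA animals, PBS animal 1 or PBS animal 2 (adjusted p of 0.0609 to 0.136).

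Low-level IFITM1 signal, on its other probe set, measured 5.20, 4.82 and 4.91 in IFNA biopsies, against 4.62, 4.71 and 4.66 in placebo biopsies and 4.58, 4.74 and 4.61 in PBS biopsies. All IFNA arrays were higher than all controls by a small margin. Its difference of 0.31 ± 0.12 against placebo did not pass (limma adjusted p = 0.466), nor did 0.33 ± 0.12 against PBS (adjusted p = 0.36).

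LOC282255 measured 13.14, 12.84 and 12.78 on its first probe set in IFNA biopsies, against 11.54, 11.09 and 11.26 in placebo biopsies and 11.01, 11.36 and 11.71 in PBS biopsies. On the second it measured 13.36, 13.05 and 13.14 in IFNA biopsies, against 11.95, 11.59 and 11.87 in placebo biopsies and 11.87, 12.07 and 12.26 in PBS biopsies. Neither probe set showed any overlap between the IFNA animals and the controls. The differences against placebo were 1.62 ± 0.20 (limma adjusted p = 0.00434) and 1.38 ± 0.15 (0.00199), and those against PBS were 1.56 ± 0.20 (0.00643) and 1.12 ± 0.15 (0.00833). The last of these calls was lost without PBS animal 2 (adjusted p = 0.0504). Whether the probes of this locus and of IFITM1, members of one family, also bind each other's transcripts was not tested.

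The extrudate alone left no detected change in the members. Placebo minus PBS was 0.10 for IFI6, -0.24 for IFI27, -0.11 and 0.02 for IFITM1, and -0.06 and -0.26 for LOC282255. None passed in limma, 0% of all probe sets did (651 of 24016 had an unadjusted p below 0.05), and the placebo and PBS arrays overlapped on all 6 member probe sets, while 2.8% and 3.44% of all probe sets were higher or lower without overlap. The 95% interval of the IFI27 difference ran from -0.85 to 0.38.

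**Figure D1:**
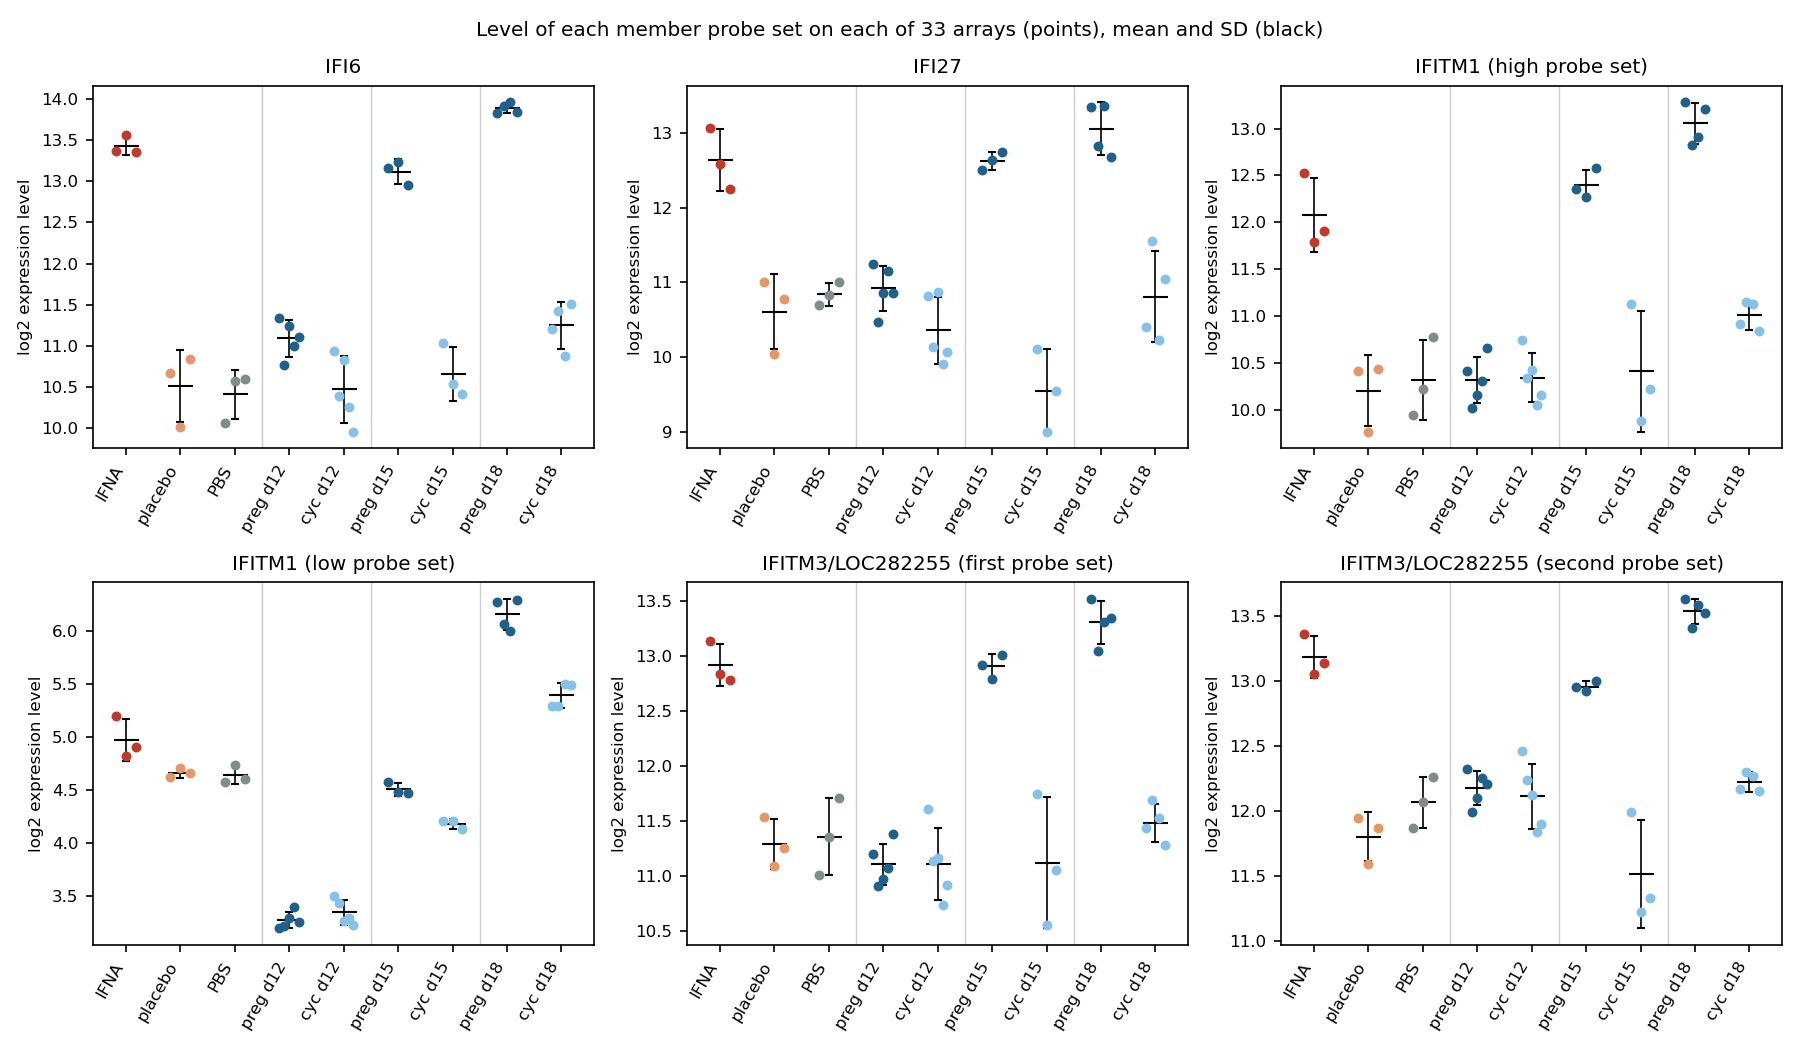
Log2 expression level (y axis) of the 6 member probe sets, 1 panel each, on each of the 33 arrays (points) in the 9 groups (x axis), with the group mean and SD in black and grey lines between the sets of arrays. The IFNA, pregnant day 15 and pregnant day 18 arrays stand above their controls in every panel, while the pregnant and cyclic arrays of day 12 overlap.

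On day 12 IFI6 had the largest of the members' differences, and no member passed the test. IFI6 measured 11.34, 10.76, 11.24, 11.00 and 11.10 in pregnant heifers, against 10.93, 10.39, 10.82, 10.25 and 9.95 in cyclic heifers. Of the 5 pregnant animals, 4 lay above every cyclic animal, and 1 lay below the 2 highest cyclic animals. The difference was 0.62 ± 0.16 (1.54-fold, 95% interval 0.28 to 0.96), with an unadjusted p of 0.00105 and a limma adjusted p of 0.409. Among all 24016 probe sets it took place 57 by p and place 65 by size of rise, and 1597 of them had an unadjusted p below 0.05. Without each animal in turn the difference ran from 0.49 to 0.74.

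IFI27 measured 11.25, 10.47, 10.86, 11.15 and 10.86 in pregnant heifers on day 12, against 10.81, 10.13, 10.87, 9.91 and 10.06 in cyclic heifers. The groups overlapped, since 3 of the 5 pregnant animals lay below the highest cyclic animal. The difference was 0.56 ± 0.25 (unadjusted p = 0.0353, limma adjusted p = 0.722).

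The IFITM probe sets showed no such difference on day 12. IFITM1 measured 10.41, 10.02, 10.16, 10.31 and 10.66 on its high probe set in pregnant heifers, against 10.74, 10.34, 10.42, 10.05 and 10.16 in cyclic heifers. The highest array of the 10 was from a cyclic animal. The differences were -0.03 ± 0.18 on that probe set and -0.07 ± 0.07 on the low one, and those of LOC282255 were -0.01 ± 0.17 and 0.06 ± 0.12, with limma adjusted p-values of 0.925 to 0.997. Overlap between pregnant and cyclic arrays was present on all 6 member probe sets, while 0.375% of all probe sets were higher and 0.579% lower without overlap, and 0.00416% passed the test in either direction.

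Of the 42 interferon response genes, none passed on day 12, and their median difference was 0.04. None had a larger difference than IFI6, and 1, MX1 (0.57 ± 0.24, limma adjusted p = 0.702), which encodes a dynamin-like antiviral GTPase, had a larger one than IFI27. The ubiquitin-like modifier ISG15 differed by 0.53 ± 0.29 and the antiviral enzyme RSAD2 by 0.52 ± 0.25, neither past the threshold (adjusted p = 0.805 and 0.762).

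To set IFI6 against IFITM1 on the same array, the level of the high IFITM1 probe set was subtracted from that of IFI6, a comparison chosen after the values were seen. This difference ran from 0.44 to 1.08 in the 5 pregnant heifers of day 12, against -0.21 to 0.40 in the 5 cyclic heifers. Every pregnant animal lay above every cyclic animal. The group means differed by 0.65 (exact permutation test, two-sided, p = 0.00794, the smallest possible with 5 against 5; 0.0317 after adjustment over 4 such tests). The corresponding differences were 0.47 on day 15 (exact p = 0.2, smallest possible 0.1), 0.59 on day 18 (exact p = 0.0857, smallest possible 0.0286) and 1.05 for IFNA against placebo (exact p = 0.1, also the smallest possible), with adjusted values of 0.133 to 0.2. The adjustment covers the 4 comparisons of groups and not the choice of this pair of probe sets among the members. Because the pattern was noticed in the same arrays, these p-values, adjusted or not, describe it and are not independent evidence.

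**Figure D2:**
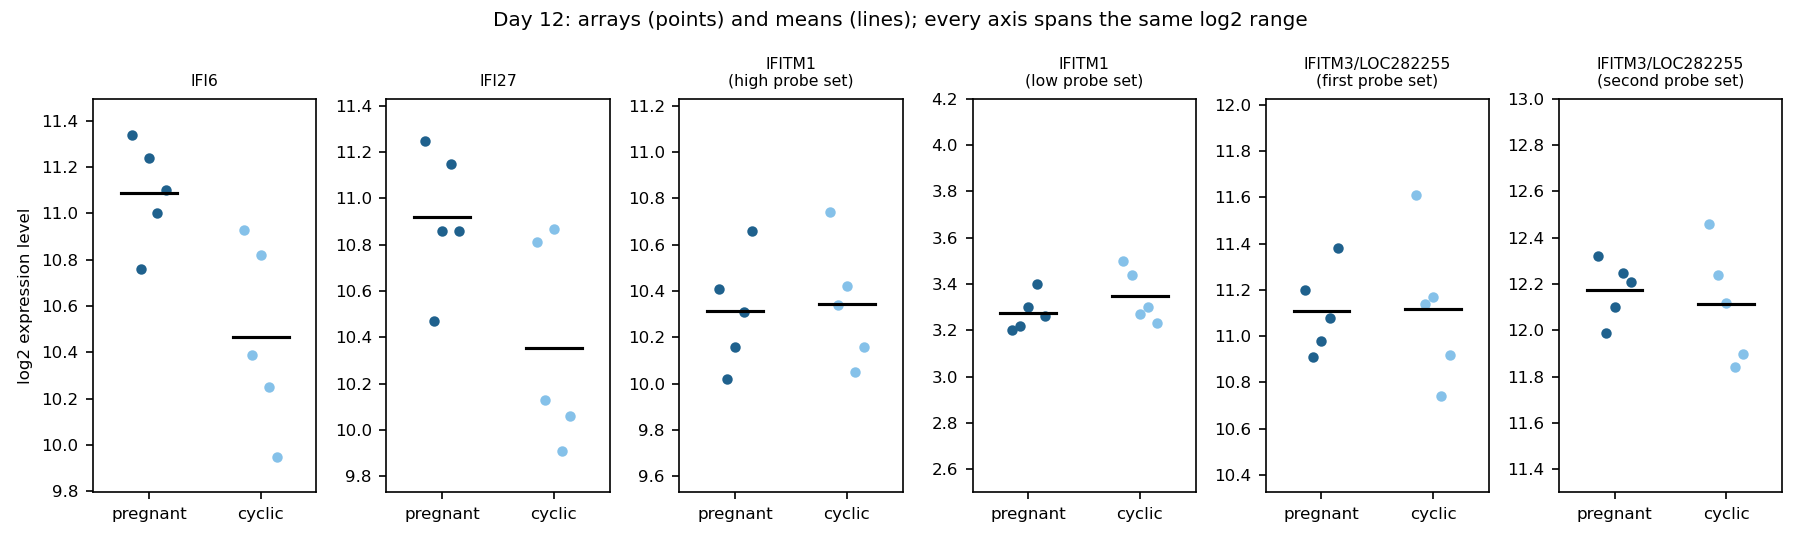
Day 12 arrays of pregnant and cyclic heifers (x axis): log2 level (y axis) of the 6 member probe sets, 1 panel each. Each point is 1 animal, black lines are means, and every y axis spans the same log2 range. The IFI6 and IFI27 arrays are shifted upwards in pregnant heifers with overlap, while the IFITM1 and LOC282255 arrays show little shift.

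By day 15 all 6 member probe sets had risen in pregnant heifers, where 2.75% of all probe sets rose, and on all 6 the pregnant arrays lay above every cyclic array, a pattern seen for 9.91% of all probe sets. IFI27 had the largest difference of the members and IFI6 the next. Of the 42 interferon response genes 38 rose, with a median difference of 2.06, and 10 had a larger difference than IFI27.

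IFI27 measured 12.50, 12.64 and 12.74 in pregnant heifers on day 15, against 10.11, 9.00 and 9.54 in cyclic heifers. The pregnant animals lay close together and the cyclic animals were spread over more than 1 log2 unit. The difference was 3.08 ± 0.32 (8.44-fold, limma adjusted p = 1.22e-06). IFI6 measured 13.16, 13.24 and 12.95 in pregnant heifers, against 11.03, 10.53 and 10.41 in cyclic heifers. That difference was 2.46 ± 0.21 (adjusted p = 3.97e-08).

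IFITM1 measured 12.36, 12.27 and 12.58 on its high probe set in pregnant heifers on day 15, against 11.13, 9.88 and 10.22 in cyclic heifers, a difference of 1.99 ± 0.23 (limma adjusted p = 4.64e-06). The first cyclic animal stood above the other two here, as it also did for IFI6, IFI27 and LOC282255. LOC282255 measured 12.92, 12.79 and 13.01 on its first probe set in pregnant heifers, against 11.75, 10.56 and 11.06 in cyclic heifers, a difference of 1.78 ± 0.22 (adjusted p = 1.38e-05). The second probe set differed by 1.44 ± 0.16 (adjusted p = 1.77e-06). On the low IFITM1 probe set the levels were 4.58, 4.48 and 4.47 in pregnant heifers, against 4.21, 4.21 and 4.13 in cyclic heifers. Its difference of 0.33 ± 0.09 passed (adjusted p = 0.0346), but the call was lost when any 1 of the 6 day 15 animals was left out and when only these 2 groups were fitted (adjusted p = 0.0891).

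The pregnancy effect grew between day 12 and day 15 for 5 of the 6 member probe sets, where 1.37% of all probe sets had a positive change of this kind. The growth, tested as an interaction, was 2.51 ± 0.41 for IFI27 (limma adjusted p = 0.00079), 2.02 ± 0.29 for IFITM1 on its high probe set (0.000178) and 1.84 ± 0.27 for IFI6 (0.000215). LOC282255 gained 1.79 ± 0.28 (0.000501) and 1.38 ± 0.20 (0.000167) on its first and second probe sets. The gain on the low IFITM1 probe set was 0.40 ± 0.11, which did not pass (adjusted p = 0.074).

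On day 18 all 6 member probe sets were again higher in pregnant heifers, where 8.84% of all probe sets rose, and none overlapped with the cyclic animals, as for 9.24% of all probe sets. IFI6 measured 13.83, 13.92, 13.96 and 13.85 in pregnant heifers, against 11.20, 11.42, 10.87 and 11.51 in cyclic heifers. The pregnant animals differed from each other by no more than 0.13 and came close to the maxima of the day 18 arrays, which were 14.01 to 14.15. Whether this probe set had reached the upper limit of its signal was not tested. The difference was 2.64 ± 0.18 (6.23-fold, limma adjusted p = 5.51e-10).

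IFI27 measured 13.35, 12.83, 13.36 and 12.68 in pregnant heifers on day 18, against 10.40, 11.55, 10.23 and 11.04 in cyclic heifers. Both groups were spread over more than 0.6 log2 units, without meeting. The difference was 2.25 ± 0.28 (limma adjusted p = 5.27e-06). IFITM1 measured 13.28, 12.83, 12.91 and 13.21 on its high probe set in pregnant heifers, against 10.91, 11.15, 11.13 and 10.84 in cyclic heifers. This difference was 2.05 ± 0.20 (adjusted p = 1.26e-07).

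LOC282255 measured 13.52, 13.05, 13.31 and 13.35 on its first probe set in pregnant heifers on day 18, against 11.44, 11.69, 11.53 and 11.28 in cyclic heifers. Its 2 probe sets differed by 1.82 ± 0.19 and 1.31 ± 0.13 (limma adjusted p = 4.2e-07 and 3.11e-07). On the low IFITM1 probe set the levels were 6.27, 6.07, 6.00 and 6.29 in pregnant heifers, against 5.29, 5.29, 5.50 and 5.49 in cyclic heifers. Its difference of 0.77 ± 0.08 (adjusted p = 2.52e-07) was less than that of the other IFITM1 probe set, and all 6 calls of day 18 held when each animal was left out in turn.

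Between day 15 and day 18 the pregnancy effect of no member changed past the threshold, which 0.208% of all probe sets did. The change was -0.83 ± 0.43 for IFI27 (limma adjusted p = 0.579), with a 95% interval of -1.71 to 0.06. It was 0.18 ± 0.28 for IFI6 and 0.44 ± 0.12 for the low IFITM1 probe set (adjusted p = 0.149), and lay between -0.13 and 0.06 for the other IFITM1 probe set and LOC282255.

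**Figure D3:**
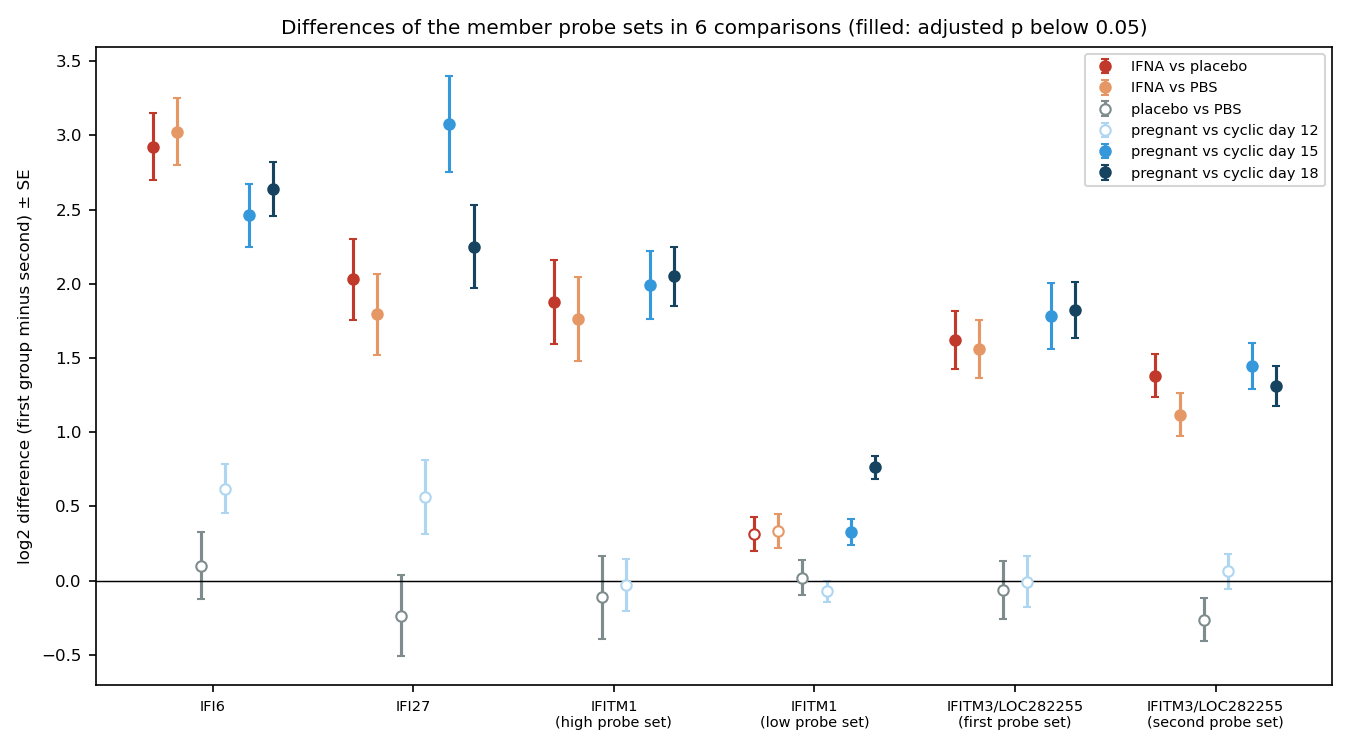
Log2 difference (y axis) of the 6 member probe sets (x axis), as points with bars of 1 SE, filled where the adjusted p was below 0.05. Colours mark IFNA against placebo, IFNA against PBS, placebo against PBS, and pregnant against cyclic heifers on days 12, 15 and 18. Placebo against PBS and day 12 lie around 0 apart from IFI6 and IFI27 on day 12, and the low IFITM1 probe set stays under 1 throughout.

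The response to IFNA and the response to pregnancy were compared as interactions over all 33 arrays, and no member passed in either comparison, while 0.371% of all probe sets did for day 15 and 1.09% for day 18. The IFNA effect on IFI27 minus its day 15 pregnancy effect was -1.05 ± 0.45 (95% interval -1.98 to -0.11, unadjusted p = 0.0292, limma adjusted p = 0.319). Of all probe sets, 3105 had an unadjusted p below 0.05 in this comparison, and IFI27 took place 2191 by p. For IFI6 the IFNA effect minus the day 15 effect was 0.46 ± 0.31. Over the alternative settings and with each animal left out, it ran from -1.44 to -0.688 for IFI27 and from 0.215 to 0.916 for IFI6, whose lowest value was that without placebo animal 2 and whose highest came with joint quantile normalisation of all arrays. Against the day 18 effect the low IFITM1 probe set differed by -0.45 ± 0.13 (adjusted p = 0.0744), IFI6 by 0.28 and IFI27 by -0.22, with ranges of 0.035 to 0.467 for IFI6 and -0.565 to -0.0217 for IFI27. The low IFITM1 probe set passed here when all arrays were quantile-normalised together (adjusted p = 0.0468) or weighted by quality (0.0174). The IFNA and day 15 animals differ in day, tissue collection, position in the horn, set of arrays, GAPDH control signal and interferon, which cannot be told apart.

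Across the 9 groups the highest mean level of IFI6 was in pregnant heifers of day 18, at 13.89 ± 0.06, followed by IFNA biopsies at 13.43 ± 0.11 and pregnant heifers of day 15 at 13.12 ± 0.15. These 3 groups did not overlap one another. The next groups were cyclic day 18 at 11.25 ± 0.28, pregnant day 12 at 11.09 ± 0.22, cyclic day 15 at 10.66 ± 0.33, placebo at 10.51 ± 0.44, cyclic day 12 at 10.47 ± 0.41 and PBS at 10.41 ± 0.30, with neighbours closer than their spread apart from pregnant day 12 and cyclic day 15. Pregnant day 18, IFNA and pregnant day 15 also held the first 3 places for IFI27, the high IFITM1 probe set and both LOC282255 probe sets. For the low IFITM1 probe set cyclic day 18 came second, at 5.39 ± 0.12, ahead of IFNA at 4.98 ± 0.20. Such levels cross sets of arrays: ranked by percentile within each array, 1 of the 9 groups kept its place for the first LOC282255 probe set, 7 for the high IFITM1 probe set and 5 for each of the other 4 probe sets. IFNA and pregnant day 15 changed places for IFI27 and for the first LOC282255 probe set, and cyclic day 18 moved to place 5 for the low IFITM1 probe set.

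IFI27 levels averaged 13.06 ± 0.35 in pregnant heifers of day 18, 12.63 ± 0.41 in IFNA biopsies and 12.63 ± 0.12 in pregnant heifers of day 15, which overlapped. Its lowest mean was that of cyclic heifers of day 15, at 9.55 ± 0.56, below cyclic day 12 at 10.36 ± 0.45 and cyclic day 18 at 10.81 ± 0.61. IFITM1 on its high probe set averaged 13.06 ± 0.22, 12.40 ± 0.16 and 12.08 ± 0.40 in pregnant day 18, pregnant day 15 and IFNA, and its other 6 groups lay between 10.20 and 11.01. LOC282255 on its second probe set averaged 13.54 ± 0.09 in pregnant day 18, 13.18 ± 0.16 in IFNA and 12.96 ± 0.04 in pregnant day 15, and 11.51 to 12.22 in its other 6 groups.

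The members varied together within groups to different degrees, given here as descriptions over the 33 arrays, which share their sets and labelling. After removal of group means, IFITM1 on its high probe set correlated with the LOC282255 probe sets at r = 0.930 and 0.906, and the LOC282255 probe sets with each other at 0.923. IFI6 and IFI27 correlated at 0.707, and IFI6 and IFITM1 at 0.524. The low IFITM1 probe set correlated with the other members at 0.047 to 0.353, and with the high IFITM1 probe set, annotated to the same gene, at 0.349.

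Among 9025 other genes, those most like each member over the 33 arrays, after centring within each set, were interferon response genes. For IFI6 they were ISG15 (r = 0.981), MX2 (0.979), a relative of MX1, and IRF9 (0.975), the DNA-binding part of the interferon-activated transcription complex. For IFI27 they were MX1 (0.963), IRF9 (0.960) and ISG15 (0.954), and for IFITM1 they were IRF9 (0.963), ISG15 (0.960) and RSAD2 (0.955). LOC282255 was most like IRF9 (0.977), ISG15 (0.971) and RTP4 (0.971). With group means removed these correlations lay between 0.518 and 0.770, so much of the likeness came from the differences between groups.

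On day 18, 18 of the 42 interferon response genes had a larger difference than IFI6, 23 than IFI27 and 33 than the second LOC282255 probe set. That probe set already averaged 12.22 in cyclic heifers of day 18. Its pregnant arrays, at 13.41 to 13.63, came near the array maxima of 14.01 to 14.15, and whether this limited its difference was not tested. The 42 measured genes of that list had a median difference of 2.27 in IFNA against placebo (31 rose), 2.25 in IFNA against PBS (33 rose), 2.06 on day 15 (38 rose) and 2.49 on day 18 (39 rose), with a median over all 9155 genes within 0.02 of 0 in each. The median over the 6 member probe sets was 1.75, 1.66, 1.89 and 1.94 in those comparisons. MX2 differed by 5.41 ± 0.25 in IFNA against placebo and by 5.57 ± 0.27 on day 18, the largest of the list. Of 7 genes of the interferon receptor and its signalling, 3 rose in each of these comparisons, all 3 of them already counted in the interferon response list. They were IRF9, STAT2, which pairs with IRF9, and USP18, which restrains the receptor. The shares of all probe sets that rose were 0.837% in IFNA against placebo, 0.712% in IFNA against PBS, 2.75% on day 15 and 8.84% on day 18. IFNAR1, a subunit of the interferon receptor, fell by 0.61 ± 0.12 on day 18 (limma adjusted p = 0.0011). It was the 1 of these 7 genes that fell then, where 10.2% of all probe sets fell, so this single call carries little weight.

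Macrophage markers were higher in some of the same comparisons. Of 7 measured, 3 rose in IFNA against placebo and 2 in IFNA against PBS, where 0.837% and 0.712% of all probe sets rose. Of these markers 1 rose on day 15 and 5 on day 18, against 2.75% and 8.84% of all probe sets, and 0 on day 12. Their mean level ran from 8.74 to 9.15 in IFNA biopsies, against 7.52 to 8.14 in placebo biopsies, from 8.08 to 8.18 in pregnant heifers of day 15, against 7.51 to 8.09 in cyclic heifers, and from 9.09 to 9.64 in pregnant heifers of day 18, against 8.18 to 8.37 in cyclic heifers. Of 7 endothelial markers 2 fell in IFNA against PBS, 1 on day 15 and 4 on day 18, where 0.15%, 2.32% and 10.2% of all probe sets fell. In IFNA against placebo 0 of these 7 fell, with a median difference of -0.18. Their median was -0.58 in IFNA against PBS and already -0.397 in placebo against PBS, where 0 fell. Of 7 epithelial markers 2 rose on day 15, and 2 rose and 1 fell on day 18. Of 7 stromal markers 1 rose on day 15, and 1 rose and 1 fell on day 18. Of 8 markers of T and NK cells 1 fell on day 18. Of 5 markers of B and plasma cells 1 rose in IFNA against placebo and 1 on day 18. Over all probe sets 0.837% rose in IFNA against placebo, 2.75% rose on day 15, and 8.84% rose and 10.2% fell on day 18. Against the day 18 shares, single calls among so few markers carry little weight. In these comparisons 0 of 9 trophoblast genes passed. The part of other cells in the members' differences was not tested.

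IFITM5, an IFITM family gene known from bone-forming cells, and ISG12(B), the neighbour and relative of IFI27, were also on the array. ISG12(B) was chosen after its values were seen. IFITM5 measured 8.33, 6.90 and 7.42 in IFNA biopsies, against 6.17, 5.75 and 6.05 in placebo biopsies, and the difference of 1.56 did not pass (limma adjusted p = 0.0659), although it did with array weights (0.045), without low probe sets (0.046), without IFNA animal 1 (1.17, adjusted p = 0.0283) and without IFNA animal 2 (1.89, 0.0208). In PBS biopsies it measured 6.41, 6.45 and 6.51, above all 3 placebo biopsies and below all 3 IFNA biopsies, and the difference of 1.09 from PBS did not pass either (adjusted p = 0.21). IFITM5 rose by 1.44 on day 15 (adjusted p = 0.00741, or 0.0838 when only these 2 groups were fitted, 0.0503 without pregnant animal 3 and 0.0521 without cyclic animal 2) and by 1.88 on day 18 (adjusted p = 3.09e-05).

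ISG12(B) measured 10.24, 8.74 and 7.93 in IFNA biopsies, and its placebo mean was 6.55 ± 0.14. The IFNA animals were spread over more than 2 log2 units, all above the controls. The difference of 2.42 ± 0.47 did not pass (limma adjusted p = 0.0635), although it did with array weights (0.0452), without low probe sets (0.0426), without IFNA animal 1 (1.79, adjusted p = 0.00936) and without IFNA animal 3 (2.94, 0.0151). Against PBS the difference was 2.38 (adjusted p = 0.071), and it passed in the same 4 settings (adjusted p = 0.0117 to 0.0483). On day 15 it measured 5.79 in all 3 pregnant heifers, against 5.23, 5.31 and 5.19 in cyclic heifers, a difference of 0.55 (adjusted p = 0.262, or 0.0144 when only these 2 groups were fitted). On day 18 it measured 8.32, 7.07, 8.04 and 6.71 in pregnant heifers, against 5.89, 6.13, 6.04 and 6.32 in cyclic heifers, and had risen by 1.44 (adjusted p = 0.000103). The IFNA effect minus the day 15 effect was 1.88 ± 0.49 for ISG12(B) and did not pass (adjusted p = 0.0934, or 0.0354 with array weights and 0.0131 without IFNA animal 3), against -1.05 ± 0.45 for IFI27.

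**Figure D4:**
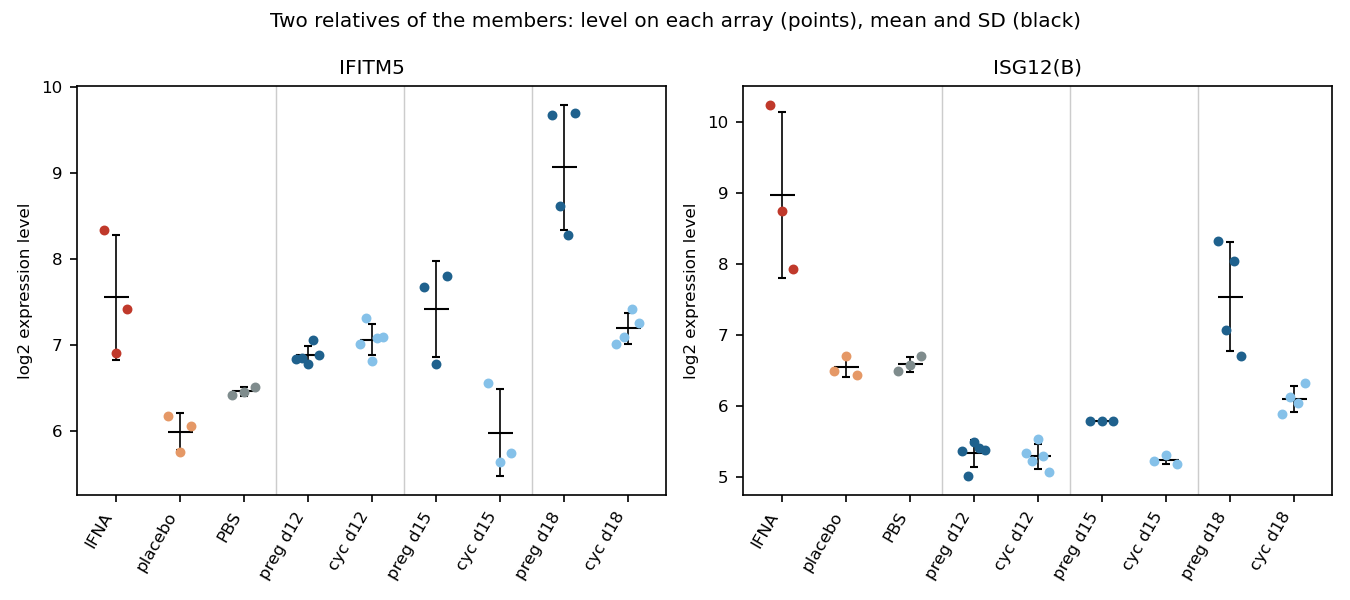
Log2 level (y axis) of IFITM5 and ISG12(B) on each array (points) in the 9 groups (x axis), with mean and SD in black. ISG12(B) lies at 7.93 to 10.24 in IFNA biopsies and at 6.71 to 8.32 in pregnant heifers of day 18, and at 5.79 in the 3 pregnant heifers of day 15.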

How the data were processed

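One bovine genome array was hybridised per heifer, with total RNA. The deposited values are log2 expression levels that the authors computed using RMA and affy; versions and order are not stated in the submitters' processing notes that name them. Their sorted values differed by an SD of up to 0.0669 within a set of arrays and up to 0.334 over all 33, so the 4 sets appear to have been normalised separately, which the notes do not state. Of 24128 probe sets, 112 controls were left out. Names came from the array annotation, updated by gene identifier in RefSeq: 13292 probe sets had 1 symbol, 86 several and 10638 none. Where a list gene had several probe sets, the one with the highest mean stood for it. No filter on low levels was applied, so all 6 member probe sets were tested.

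A mean per group was estimated by lmFit and eBayes of limma 3.58.1 (R 4.3.3) on the 9 biopsy arrays, the 24 slaughter arrays or, for interactions between experiments, all 33. Tests were two-sided, adjusted by Benjamini-Hochberg over 24016 probe sets, with a threshold of 0.05, and the fit was tested on simulated data. The median SE was 0.147 for the biopsy comparisons and 0.0906, 0.117 and 0.101 for days 12, 15 and 18; the number of arrays limits this precision. Replicates are separate animals. The exact permutation test ran in Python. Named genes are the members, their relatives in the annotation and, for each member, the 3 genes of highest Pearson correlation; of the interferon list, those with the largest and smallest changes and others chosen after their values were seen. The members and lists were chosen with earlier results of these data known. Same-numbered animals did not deviate together in every pair (correlations of -0.337 to 0.368). No sequence was used here.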

Additional observations from a re-analysis of the deposited data

Results flagged for a closer look

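The pregnancy effect differed between days 12 and 15, by a test of the interaction itself, for 5 member probe sets. The gain was 2.51 for IFI27, 2.02 for IFITM1 on its high probe set, 1.84 for IFI6, and 1.79 and 1.38 for LOC282255 on its first and second probe sets. Day and position in the horn cannot be told apart. In the 24 combinations of member probe set and group with 4 or 5 arrays, no array stood apart from the others of its group by Dixon's test, which chance flags in about 1 of 20 groups.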

How the results depend on the processing

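Limits: groups held 3 to 5 animals, and the sets of arrays may have been normalised separately. Each limma comparison was repeated with joint quantile normalisation, median centring, array weights, without low probe sets, and without each animal in turn. Comparisons of 2 groups, but not interactions, were also fitted to those groups alone, those of biopsies with a GAPDH covariate, and interactions of IFNA with PBS as its control. The comparison of IFI6 minus IFITM1 was added after seeing the data. Without low probe sets, the low IFITM1 probe set has no value, nor has ISG12(B) outside the biopsies. The calls of IFI6 held throughout in IFNA against placebo (difference 2.68 to 3.15), IFNA against PBS, and days 15 and 18.

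The count of members past the threshold for the IFNA effect minus the day 18 effect was 1, the low IFITM1 probe set, in place of 0, with joint quantile normalisation, with array weights, and without IFNA animal 1 (range 0 to 1 without each animal). That for IFNA against PBS was 5, and 2 to 4 without each animal; it was 3 without IFNA animal 2 or PBS animal 1 and 2 without PBS animal 2.

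Samples of one number share only that number. With the replicate number as a block, the members past the threshold were 5 for IFNA against placebo, 4 for IFNA against PBS, 5 on day 15 and 6 on day 18. IFITM1 on its high probe set no longer passed against PBS (adjusted p = 0.0513), nor did the low IFITM1 probe set on day 15 (0.0843).

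Small differences, none past the threshold, changed sign. With array weights, placebo minus PBS became 0.059 and -0.023 for the high and low IFITM1 probe sets and 0.117 for the first LOC282255 probe set, and the IFNA effect on the second LOC282255 probe set minus its day 18 effect became -0.0609 (-0.196 with PBS as control). With joint quantile normalisation, the day 12 difference of the first LOC282255 probe set was 0.011, the second changed by 0.094 from day 15 to 18, and the IFNA effect minus the day 15 effect was 0.084 and 0.0085 for IFITM1, 0.252 and 0.298 for LOC282255 and -0.0907 for IFITM5. That last quantity was -0.021 for IFITM5 with array weights and -0.347 with PBS as control, where the low IFITM1 probe set was at 0.0067.

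Without each animal, placebo minus PBS ran from -0.435 to 0.045 for IFI27, -0.30 to 0.12 and -0.012 to 0.068 for IFITM1, -0.238 to 0.112 for the first LOC282255 probe set, -0.073 to 0.348 for IFI6 and -0.122 to 0.017 for ISG12(B). Day 12 differences ran from -0.117 to 0.0695 for IFITM1 on its high probe set, -0.10 to 0.118 and -0.006 to 0.149 for LOC282255 and -0.0135 to 0.123 for ISG12(B). Changes from day 15 to 18 ran from -0.303 to 0.322 for that IFITM1 probe set, -0.274 to 0.321 and -0.369 to 0.016 for LOC282255 and -0.0067 to 0.303 for IFI6. The IFNA effect minus the day 15 effect ran from -0.477 to 0.148 and -0.125 to 0.065 for IFITM1, -0.473 to 0.122 and -0.302 to 0.083 for LOC282255 and -0.27 to 0.45 for IFITM5; minus the day 18 effect, from -0.705 to 0.01 for IFITM5 and -0.039 to 0.141 for the second LOC282255 probe set. The cause was not tested.

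Counts over all probe sets moved by over 1.5 times. IFNA against placebo gave 208 calls, and 323 with array weights, 124 with only these groups, 338 with the GAPDH covariate and 136 without IFNA animal 2. IFNA against PBS gave 207, and 433 with array weights, 132 with the replicate block and 110 to 124 without IFNA animal 2 or any PBS animal. Day 12 gave 1, and 0 to 3 elsewhere. Day 15 gave 1218, 465 with only these groups and 601 to 797 without 1 of 4 animals. The change from day 12 to 15 gave 477, and 289 or 282 without pregnant animal 1 or cyclic animal 2 of day 15; that from day 15 to 18 gave 50, 2 without low probe sets and 21 to 81 without 1 animal. The IFNA effect minus the day 15 effect gave 89, 1026 with array weights, 20 with the block, 16 with PBS as control and 17 to 414 without 1 animal; minus the day 18 effect it gave 262, 1269, 125, 108 and 106 to 625.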
